A study of Mus musculus with 4 samples.

Results

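The variable (V), diversity (D) and joining (J) segments of the T cell receptor β chain were examined in single thymocytes. The members were all features whose symbol starts with Trbv, Trbd or Trbj, 51 of the 32285 features counted, and they comprised 35 V, 2 D and 14 J features. Thymocytes of 2 control mice (genotype Tox4;F/F) and 2 cKO mice (Tox4;F/F;Lck+) were profiled with a droplet 3′ kit, which reads transcripts next to their poly(A) tail and counts molecules by unique molecular identifiers (UMIs). All 4 mice carried floxed Tox4 alleles, with exons 4 to 6 between the loxP sites, and the cKO mice also carried Lck-Cre, which is active in developing T cells. Per the study's methods, its mice were sex-matched littermates 6 to 8 weeks old, and the floxed allele was made in C57BL/6 eggs. The comparisons ask how the segments were used from double-negative (DN) through double-positive (DP) to single-positive (SP) cells, and whether loss of Tox4 altered this.

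A β chain gene is assembled in DN thymocytes, where the RAG recombinase joins a D to a J segment and then a V segment to the joined DJ. A productive chain pairs with the pre-T cell receptor α chain, the cell divides as a DP blast, and allelic exclusion keeps most cells to a single productive β chain. The assembled message carries the V, D and J parts towards its 5′ end and the constant region, Trbc1 or Trbc2, towards its 3′ end, and unrearranged V segments can also be transcribed from their own promoters.

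The deposited libraries held between 42716798 and 62007453 UMIs, and 33414 cells passed the filters, of which 27922 lay in clusters named as the 6 αβ classes. Cells above 10% mitochondrial UMIs made up 48.3%, 20.6%, 46.1% and 23.1% of control 1, control 2, cKO 1 and cKO 2, so this share went with the replicate number and not with the genotype. Classes were rebuilt from marker genes and are therefore DN-like, DP blast-like (DPbla), rearranging DP-like (DPre), selected DP-like (DPsel), CD4SP-like and CD8SP-like, and no V, D or J feature of a T cell receptor entered the clustering. The DN cluster (630 cells) was led by Gm4632, Tcrg-C2 and Tcrg-C1, with the DN markers Il2ra and Hes1 among its leading genes, and its score for γδ T cell markers (2.85) was close to its score for DN markers (2.66). Between 8.26% and 16.0% of the kept cells of a library stayed unnamed, and any pair of libraries shared 10 to 31 barcodes among kept cells. In DP cells Tox4 stood at 72.3 and 74.6 CPM (UMIs per 1000000 UMIs) in control and at 57.4 and 61.2 CPM in cKO libraries (log2 change -0.26, adjusted p 0.143, edgeR). Where reads fell within Tox4 was not examined, so this level does not check the labels. The study judged the deletion efficient from Western blots of unsorted and sorted thymocytes.

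The V segments lie in a row on chromosome 6 (GRCm38), beginning with Trbv1 at chr6:40891229-40891885 on the plus strand. Trbv2 lies at chr6:41047340-41047995 and Trbv3 at chr6:41048290-41048828, with 294 bases between them. Trbv12-2 lies at chr6:41118851-41119364 and Trbv13-2 at chr6:41121396-41121832. Trbd1 (chr6:41533201-41533212) and Trbd2 (chr6:41542163-41542176) follow far downstream, and Trbv31 (chr6:41557691-41558452) lies beyond them on the minus strand. The V ends that are joined to D are shown for the segments on which the results turn, since they let a reader see how close the family members are. Each is the last 60 bases of the segment's transcript in the GENCODE M21 annotation, 5′ to 3′, with TGTGCCAGC in capitals where it occurs, a stretch found near the start of the third complementarity-determining region. Both D segments are shown whole, since their length bears on whether they can be counted.
Trbv2: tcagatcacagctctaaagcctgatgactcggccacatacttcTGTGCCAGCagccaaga
Trbv3: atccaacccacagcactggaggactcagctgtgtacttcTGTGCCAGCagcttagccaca
Trbv12-1: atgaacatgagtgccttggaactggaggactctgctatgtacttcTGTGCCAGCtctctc
Trbv12-2: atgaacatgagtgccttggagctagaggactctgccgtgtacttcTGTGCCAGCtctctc
Trbv13-1: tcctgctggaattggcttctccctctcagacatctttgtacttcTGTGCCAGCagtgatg
Trbv13-2: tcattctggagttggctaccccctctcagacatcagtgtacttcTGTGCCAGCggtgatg
Trbv13-3: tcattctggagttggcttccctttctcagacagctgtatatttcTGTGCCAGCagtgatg
Trbv19: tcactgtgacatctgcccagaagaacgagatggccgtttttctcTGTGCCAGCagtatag
Trbv31: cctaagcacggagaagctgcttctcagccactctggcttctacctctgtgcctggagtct
Trbd1: gggacagggggc
Trbd2: gggactgggggggc

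TGTGCCAGC occurred in the last 60 bases of 17 of the 35 V features (48.6%), in 13 of 22 genes and 4 of 13 pseudogenes, and on the opposite strand of 0. Trbv31 does not hold these letters in this window. Over the last 280 bases Trbv12-1 and Trbv12-2 were 88.9% identical, Trbv13-1 and Trbv13-2 88.2%, and Trbv13-2 and Trbv13-3 91.4%. The neighbours on the chromosome were less alike, with 59.1% for Trbv2 and Trbv3 and 56.2% for Trbv12-2 and Trbv13-2. Of 231 windows of 50 bases, Trbv12-1 and Trbv12-2 shared 0 and Trbv13-1 and Trbv13-2 shared 0. Trbv13-2 and Trbv13-3 shared 1 of 231, and a read within it cannot be given to either.

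To determine which members could be measured, UMIs were counted per feature. All 2 D and 14 J features were at 0 UMIs in every library. Trbd1 and Trbd2 are 12 and 14 bases long and the J features 46 to 53 bases, and how reads that cross a junction were assigned is not given in the sources used here, so these zeros say nothing of which D and J segments the cells had joined. The V features are 260 to 566 bases long. UMIs were found for 28 of the 35 V features, among them all 22 annotated genes, and 6 of the 13 pseudogenes held 80 UMIs in all, 71 of them of Trbv24. The libraries held 1737, 1566, 1979 and 1967 V UMIs as deposited (control 1, control 2, cKO 1, cKO 2, the order used throughout). The αβ classes kept 4681 V UMIs of 27 features. V segments were rare beside the constant region of the same chain: in all DP cells the 4 libraries held 38.1 to 48.7 CPM of all V features against 8152 to 10149 CPM of Trbc1 and Trbc2 together, or 4.64 V UMIs per 1000 of Trbc.

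Usage is given here as a share of V UMIs, and whether these UMIs came from rearranged segments was not tested. Trbv2 held the most, with 984 UMIs in αβ cells or 21.0% of V UMIs. It was followed by Trbv12-2 (447 UMIs, 9.55%), Trbv13-2 (405 UMIs, 8.65%) and Trbv19 (363 UMIs, 7.75%). Next came Trbv13-1 with 273 UMIs, Trbv3 with 267, Trbv15 with 222, Trbv31 with 221, Trbv12-1 with 214 and Trbv20 with 197. These 10 segments held 76.8% of the V UMIs, and the other 17 detected V features held 1 to 189 UMIs each. Trbv1, the first segment of the locus, had 163 UMIs.

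Per kilobase of transcript Trbv2 remained at the top. It held 17.5, 13.4, 17.8 and 11.9 CPM per kb in the 4 libraries, above the other V segments in each. Trbv12-2 held 12.1, 11.9, 8.64 and 7.34 CPM per kb. Trbv13-2 held 11.4, 8.76, 11.1 and 9.31 CPM per kb. These last 2 overlapped, so neither stood above the other beyond the spread between libraries. Trbv1 and Trbv31, the outermost segments, were both detected in every library, at 2.59 to 3.95 and 3.70 to 5.94 CPM per kb.

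**Figure D1:**
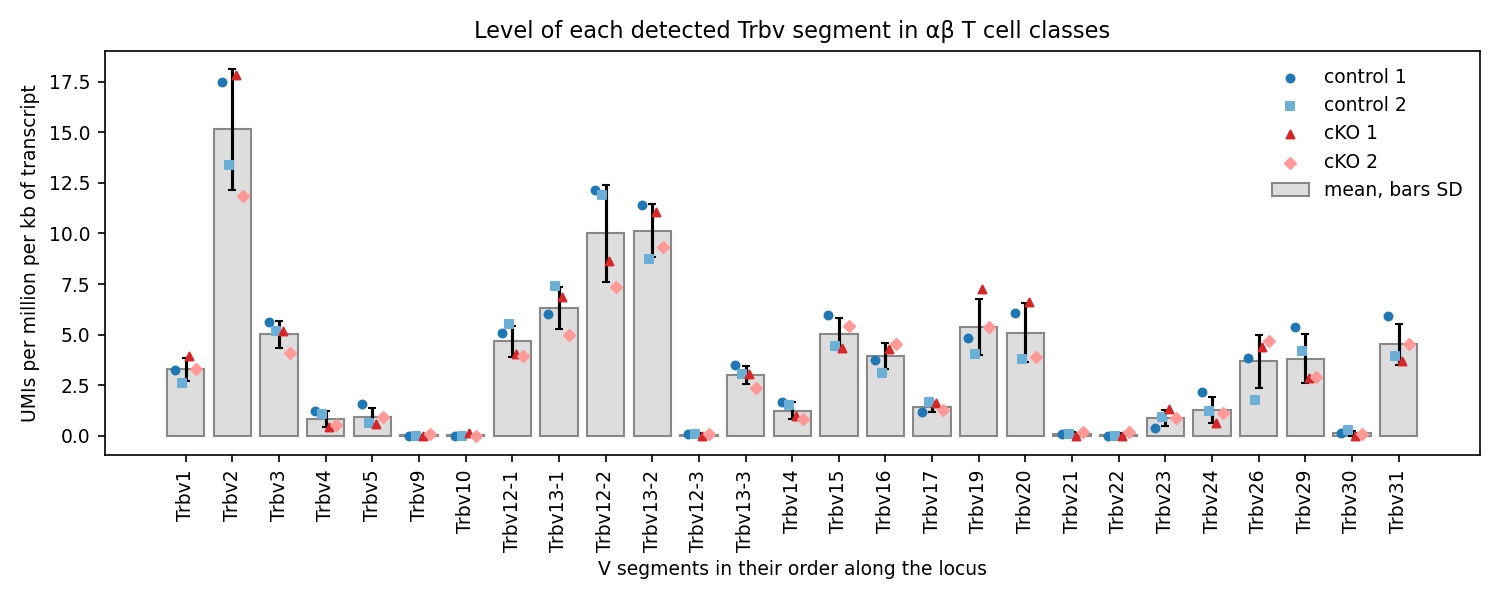
Level of each V segment detected in αβ cells, in their order along the locus, as CPM per kilobase of transcript. Points are the 4 libraries, columns their mean and error bars the SD; Trbv2 stands highest in every library at 11.9 to 17.8, and Trbv12-2 and Trbv13-2 follow.

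To follow the segments through development, the V UMIs were summed per class. DN cells had 12.2, 11.1, 11.8 and 11.6 CPM of all V features, from 66 UMIs. DPbla cells had 43.0, 31.1, 42.0 and 33.5 CPM, and DPre cells had 53.6, 45.2, 51.5 and 42.3 CPM. In each library the V level was therefore lowest in DN cells and highest in DPre cells. DPsel cells had 44.9, 41.3, 46.3 and 37.2 CPM. CD4SP cells had 38.3, 25.0, 31.9 and 27.3 CPM, and CD8SP cells had 24.4, 21.9, 24.1 and 21.8 CPM. Among the αβ classes CD8SP cells stood second from the bottom in each library. A sum over the members was given no test.

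Relative to the constant region the order was different. Per 1000 Trbc1 and Trbc2 UMIs, there were 3.20 V UMIs in DN cells, 4.21, 4.60 and 5.47 in the DPbla, DPre and DPsel classes, and 6.88 and 6.18 in CD4SP and CD8SP cells (4 libraries pooled). The pooled Trbc level itself was 3632 CPM in DN cells, 8721, 10277 and 7664 CPM in the DP classes in the same order, and 4434 and 3741 CPM in CD4SP and CD8SP cells. SP cells thus had about as much Trbc as DN cells but more V UMIs beside it. By library DPbla cells had 4.23, 3.18, 4.84 and 4.42 V UMIs per 1000 of Trbc, higher in both cKO than in both control libraries. In the other αβ classes control and cKO libraries overlapped in this ratio.

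V features were also counted in classes not named as αβ. They reached 16.5 CPM in cells like the mononuclear phagocyte system (MPS), 16.0 CPM in γδ T cell-like cells and 1.46 CPM in B cell-like cells (1 UMI). The γδ T cell-like cluster scored 4.62 for γδ T cell and 2.81 for CD8SP markers. It held 244 cells, against 83 when all variable genes entered the clustering, so it is not a clean background. MPS-like droplets also held 4791 CPM of Trbc, a T cell gene, with 3.44 V UMIs per 1000 of it. By library the MPS values were 8.51, 22.9, 11.4 and 19.6 CPM, so the DN value lay below them in control 2 and cKO 2 and above them in control 1 and cKO 1. The part of free RNA in the DN values was not tested.

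**Figure D2:**
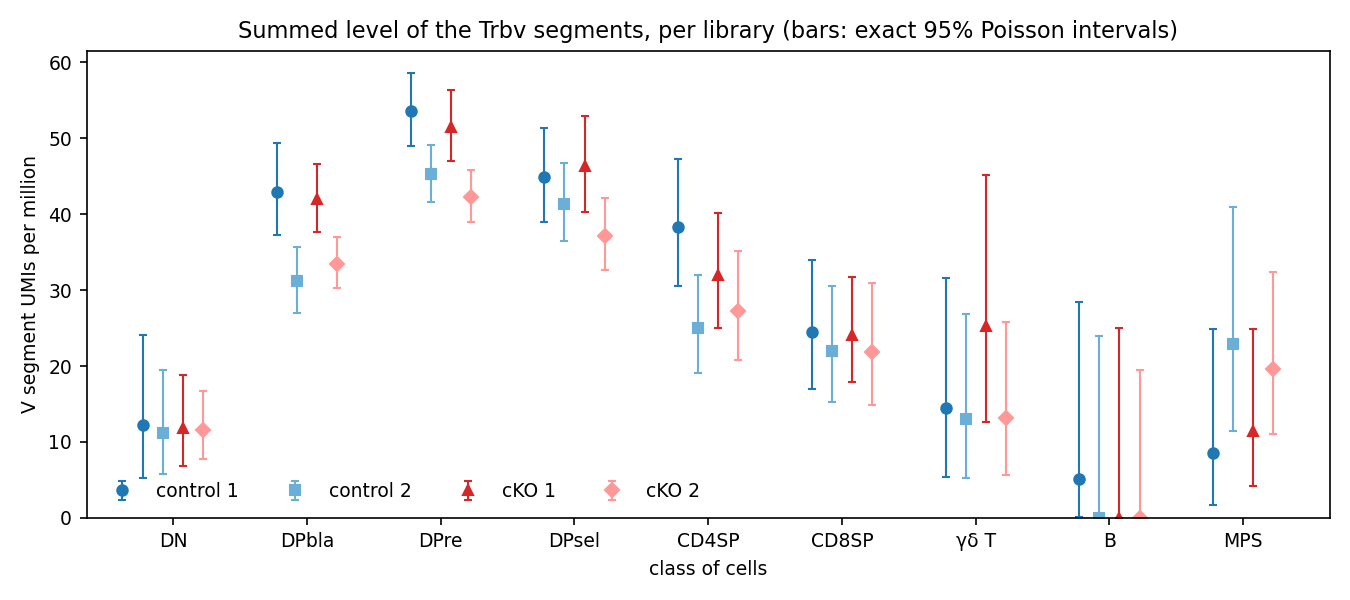
Summed level of the V segments in CPM for each class and library, with exact 95% Poisson intervals that cover counting error only. DN cells stand at 11.1 to 12.2 and DPre cells at 42.3 to 53.6, and in each αβ class the control and cKO libraries overlap.

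A V UMI was seen in a minority of cells. On all cells, 9.68% of DN, 25.0% of DPbla, 11.9% of DPre, 14.8% of DPsel, 14.7% of CD4SP and 16.2% of CD8SP cells had at least 1 V UMI. Their median depths differed, at 8628, 8851, 2639, 3586, 5189 and 8023 UMIs per cell in the same order. When each cell was thinned to 1000 UMIs the shares were 0.317% (2 of 630 cells), 3.69%, 4.67%, 4.13%, 3.16% and 2.05%. DPre cells, among the lowest without thinning, were then the highest. Thinning left out 6 DPbla, 143 DPre, 57 DPsel and 10 CD4SP cells that were shallower.

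The background share was 1.28% thinned and 2.66% unthinned in MPS-like cells (median 1070 UMIs, 542 shallower cells left out) and 0.752% thinned and 0.654% unthinned in B cell-like cells (median 3455 UMIs). The thinned DN share, with an exact interval of 0.0385% to 1.14%, overlapped with both and could not be told apart from them at this depth. The 2 DN cells behind it were both of control 1. Thinning was a single random draw per cell, and the interval does not cover the noise of that draw. The unthinned DN share lay above those of MPS-like and B cell-like cells, at a greater depth per cell. The thinned CD8SP share (exact Clopper-Pearson interval 1.18% to 3.31%) and CD4SP share (2.38% to 4.10%) overlapped with the interval of MPS-like cells (0.555% to 2.51%). The DP classes lay above that interval, with 3.08% to 4.37% in DPbla, 4.35% to 5.02% in DPre and 3.62% to 4.70% in DPsel cells. The wider intervals of B cell-like cells (0.0190% to 4.12%) and γδ T cell-like cells (0.669% to 4.72%) reached into them, for the B cell-like cells in DPbla and DPsel and for the γδ T cell-like cells in all 3. By library the thinned share in all DP cells was 4.89%, 4.39%, 4.56% and 4.14%, and the control and cKO libraries overlapped.

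The composition of the V UMIs in DN cells was unlike that of the later classes. Trbv12-2 had 2, 4, 4 and 11 UMIs in DN cells, 31.8% of the 66 V UMIs (exact interval 20.9% to 44.4%). Trbv13-2, which lies next to it on the chromosome, had 2, 3, 4 and 7 UMIs there, 24.2% (14.5% to 36.4%). Each made up at least 23.5% of the V UMIs in every library. Trbv2 had 0, 1, 4 and 1 UMIs in DN cells, 9.09% (3.41% to 18.7%). In cKO 1 its share was 23.5%, the same as those of Trbv12-2 and Trbv13-2, so the lower pooled share rests on the other libraries. Trbv19 had 1 UMI in each library, and Trbv3 had 2 UMIs, both in control 1. Trbv13-1 had 0 UMIs in DN cells, which allows up to 0.529 CPM (3 UMIs over the class), although it lies between Trbv12-1 and Trbv12-2.

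In DPbla cells Trbv2 took 22.2% of the V UMIs (19.8% to 24.7%), Trbv13-2 7.60% and Trbv12-2 6.21%. From there on the share of Trbv2 stayed within overlapping intervals, while the interval of Trbv12-2 in DPbla cells did not overlap with those in DPre and DPsel cells. Trbv2 made up 20.4% in DPre, 21.6% in DPsel, 23.1% in CD4SP and 19.2% in CD8SP cells. Trbv12-2 made up 9.81% (8.57% to 11.2%), 11.5% (9.55% to 13.8%), 9.61% and 9.27% in the same classes, against 4.88% to 7.76% for the interval in DPbla cells. Trbv13-2 made up 8.58%, 8.82%, 9.25% and 8.61%.

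The DN UMIs were spread over cells. Of the 630 DN cells 61 held a V UMI, 21 held Trbv12-2, 16 held Trbv13-2 and 1 held both, and 15 V segments were seen in all. In MPS-like cells Trbv2 took 8 of 35 V UMIs and Trbv12-2 took 5, and in γδ T cell-like cells Trbv2 took 4 of 32 and Trbv12-2 and Trbv13-2 took 3 each.

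**Figure D3:**
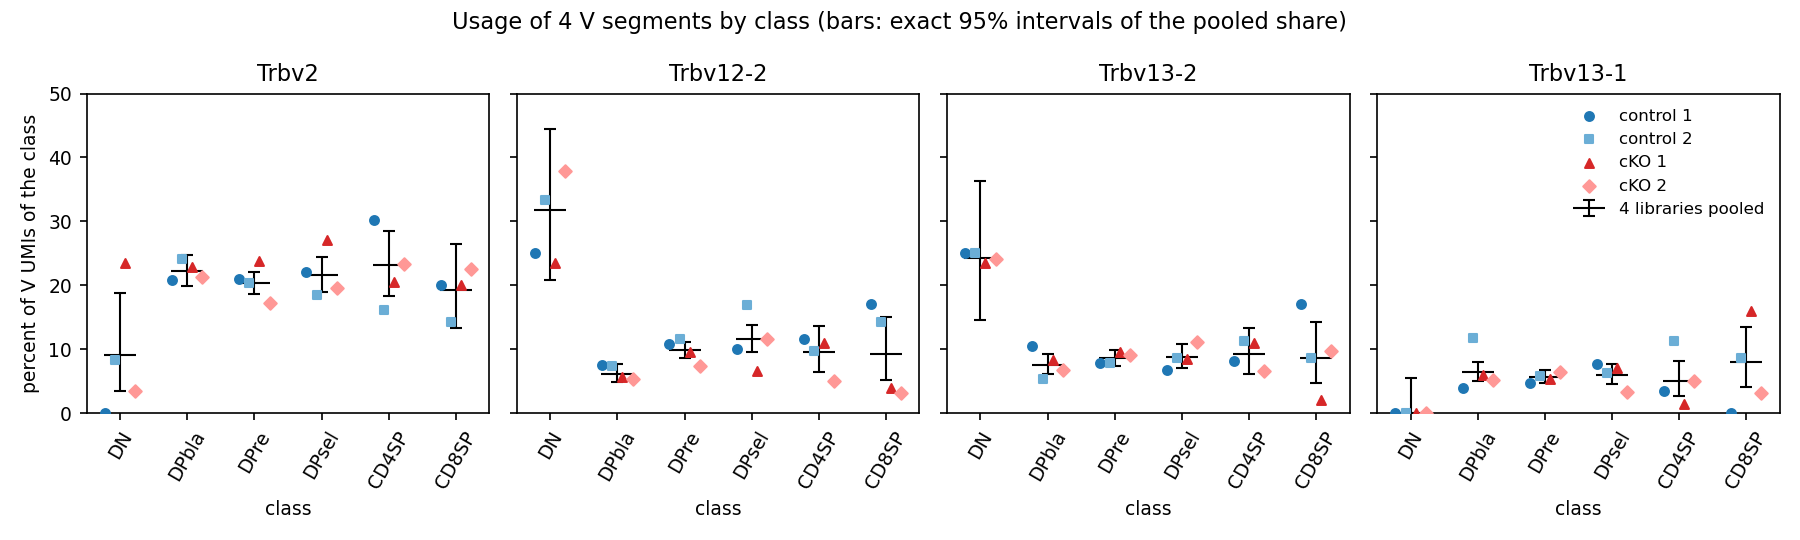
Usage of Trbv2, Trbv12-2, Trbv13-2 and Trbv13-1 as percent of the V UMIs of each class; points are libraries and crosses the pooled share with its exact 95% interval. Trbv12-2 (31.8%) and Trbv13-2 (24.2%) are high in DN cells, where Trbv13-1 is at 0, and from DPbla cells onwards Trbv2 is the highest of the 4 at 19.2% to 23.1%.

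The stages were then compared by edgeR over 24 sums of UMIs (4 libraries in 6 classes) with the library as a term. The filter on low counts was passed by 6 of the 51 members, Trbv2, Trbv3, Trbv12-2, Trbv13-1, Trbv13-2 and Trbv19. From DN to DPbla cells 4 of these 6 rose at an adjusted p under 0.05 and 0 fell. Over all 11328 features 60% were called, 3361 of them upwards, so the number called in either direction is near the background. Trbv2 went from 0, 0.928, 2.77 and 0.400 CPM in DN to 8.98, 7.52, 9.56 and 7.14 CPM in DPbla cells, without overlap (log2 change 2.96, SE 0.42, adjusted p 2.11e-07, edgeR). The pooled ratio was 7.70, with a counting interval of 3.49 to 21.2. Trbv19 rose by 2.15 on the log2 scale (SE 0.53, adjusted p 0.000740, edgeR) and Trbv3 by 2.70 (SE 0.81, adjusted p 0.00459, edgeR). The call for Trbv3 rests in part on cKO 2, since without it the value was 1.92 (adjusted p 0.0902, edgeR). Trbv13-1 had 1.71, 3.68, 2.51 and 1.72 CPM in DPbla cells and was at least 4.43-fold higher there than the limit in DN cells.

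The remaining pair did not pass the test. Trbv12-2 stood at 3.05, 3.71, 2.77 and 4.40 CPM in DN and 3.21, 2.30, 2.39 and 1.81 CPM in DPbla cells, with overlapping values (log2 change -0.66, SE 0.39, adjusted p 0.151, edgeR). Trbv13-2 stood at 3.05, 2.78, 2.77 and 2.80 CPM in DN and 4.49, 1.69, 3.47 and 2.24 CPM in DPbla cells (0.04, SE 0.40, adjusted p 0.934, edgeR). The ratios of DPbla to DN were 0.615 (0.374 to 1.05) and 0.990 (0.576 to 1.81).

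When the V UMIs of a sum were taken as its library size, so that a fold change is one of usage, the median of all features moved to -1.72 and 92.2% of all features were called. Since this scaling moved all features alike, its p-values carry that shift and no call is drawn from them. From DN to DPbla cells the log2 change in usage was -2.35 (SE 0.43) for Trbv12-2, -1.66 (SE 0.46) for Trbv13-2 and 1.26 (SE 0.52) for Trbv2, with 1.05 for Trbv3 and 0.47 for Trbv19. Trbv13-2 lay at the shift, and what Trbv12-2 had beyond it was close to its change in CPM given above, which did not pass. Without the filter on low counts, 11 of 27 V segments rose from DN to DPbla cells and 0 fell. Over all 20815 features 34.1% were called, 3650 of them upwards. Trbv1 and Trbv31 were among the 11 with log2 fold changes of 2.15 and 2.16.

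From DPbla to DPre cells 1 of the 6 segments was called, at a background of 73%. Trbv12-2 rose from 3.21, 2.30, 2.39 and 1.81 CPM to 5.77, 5.27, 4.92 and 3.14 CPM, higher in DPre cells in each library (log2 change 0.68, SE 0.23, adjusted p 0.00815, edgeR). From DPre to DPsel cells 0 of 6 were called, at a background of 59%, and 0 had an unadjusted p under 0.05. Without the filter 1 V segment was called there, at a background of 33.5%. This was Trbv15, with 3.66, 2.60, 2.19 and 2.79 CPM in DPre and 0.863, 0.972, 1.73 and 1.70 CPM in DPsel cells, lower in each library (-0.99, SE 0.31, adjusted p 0.00578, edgeR).

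Between DPsel and CD4SP cells 0 of 6 segments were called at a background of 37.6%, and 0 had an unadjusted p under 0.05. The 6 log2 fold changes were all below 0, with a median of -0.27 against -0.014 over all features. DESeq2 called 0 as well here, from DPre to DPsel and between the SP classes. Between DPsel and CD8SP cells 1 of 6 was called at a background of 45.4%, and the 6 log2 fold changes were again all below 0, with a median of -0.55 against 0.03 over all features. Trbv2 fell from 9.93, 7.62, 12.5 and 7.25 CPM in DPsel to 4.88, 3.13, 4.81 and 4.93 CPM in CD8SP cells, without overlap (-0.74, SE 0.28, adjusted p 0.0269, edgeR). The call was lost without cKO 1 (-0.70, adjusted p 0.0964, edgeR) and without control 2 (-0.71, adjusted p 0.0811, edgeR), and in usage the log2 change of Trbv2 was -0.19. At a mitochondrial limit of 5%, which left 27 to 133 CD8SP cells per library, there was no decrease, with a value of 0.0036.

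CD8SP and CD4SP cells did not differ in any of the 6 segments by the test, at a background of 29.2%, and 0 had an unadjusted p under 0.05. Trbv2 gave -0.60 (SE 0.32, adjusted p 0.160, edgeR). Trbv31, which was below the filter, stood apart in number: it had 5, 5, 5 and 3 UMIs in CD4SP cells and 0, 0, 2 and 0 in CD8SP cells. The pooled ratio of CD4SP to CD8SP was 6.37, with a counting interval of 1.53 to 56.6. Without the filter on low counts Trbv31 was the 1 V segment called between them (-2.57, SE 0.86, adjusted p 0.0209, edgeR), at a background of 15.5%. Between DPsel, with 56 UMIs of Trbv31, and CD8SP cells the same fit called 3 V segments lower, Trbv31 (-2.77, adjusted p 0.00155, edgeR), Trbv2 and Trbv12-2, at a background of 25.4%.

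To determine whether loss of Tox4 altered the segments, cKO and control libraries were compared within each class. In all DP cells 19 members passed the filter and 0 were called with genotype as the single term, at a background of 5.88%. An unadjusted p under 0.05 was found for 4 of the 19, and for 2635 of all 12850 features. DESeq2 called 0 members in every genotype comparison in which any was tested. With a replicate block added, edgeR called 2 of 19, Trbv12-2 and Trbv26, at 15.3% of all features. No label ties replicate numbers to litters. Without the block, 8 of the 19 log2 fold changes were above and 11 below 0, with a median of -0.14 against -0.0048 over all features. Trbv2 had 10.3, 8.39, 11.3 and 7.23 CPM (log2 change 0.03, SE 0.20, adjusted p 0.958, edgeR), and the replicate numbers lay further apart than the genotypes.

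Among the 4 with an unadjusted p under 0.05, Trbv12-2 had 4.80 and 4.92 CPM in control and 3.57 and 2.90 CPM in cKO libraries, lower in both (-0.55, SE 0.21, adjusted p 0.148, edgeR). Trbv29 had 2.24, 1.61, 1.04 and 1.12 CPM (-0.76, SE 0.31, adjusted p 0.182, edgeR). Trbv19 had 2.89, 2.52, 4.38 and 3.40 CPM, higher in both cKO libraries (0.57, SE 0.24, adjusted p 0.184, edgeR). Trbv26 had 1.58, 0.669, 1.81 and 1.84 CPM, the largest change upwards (0.80, SE 0.36, adjusted p 0.229, edgeR). Without control 1 it was called (1.47, adjusted p 0.0362, edgeR), as 1 of 21 members tested at a background of 4.33%. The largest change downwards was that of Trbv4 (-1.18, SE 0.57, adjusted p 0.256, edgeR), from 5 to 11 UMIs per library.

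Both cKO libraries lay above both control libraries for 4 of the 19 segments, against 19.7% of all features, and below them for 5 of 19, against 32.3% of all features. Trbv1 was among the higher ones (1.42, 1.26, 1.85 and 1.53 CPM; 0.38, SE 0.30, adjusted p 0.530, edgeR). The outlying Trbv31 overlapped (2.78, 1.73, 1.63 and 2.12 CPM; -0.18, SE 0.29, adjusted p 0.794, edgeR). Of the other segments with the most UMIs, Trbv12-1 was at -0.37, Trbv3 at -0.17, Trbv13-1 at -0.15, Trbv13-2 at 0.14, Trbv20 at 0.06 and Trbv15 at 0.03, and none of these passed the test.

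**Figure D4:**
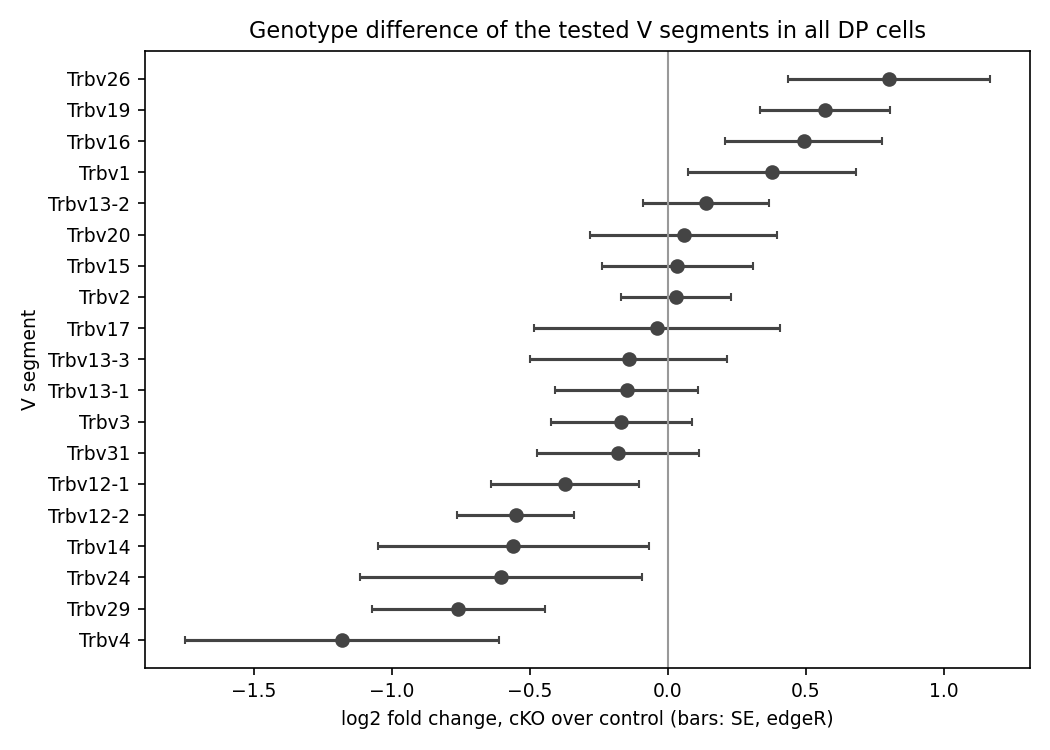
Log2 fold change of cKO over control in all DP cells for the 19 tested V segments, with approximate standard errors from edgeR. The values run from -1.18 for Trbv4 to 0.80 for Trbv26 and Trbv2 lies at 0.03; with genotype as the single term none was called.

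Within single classes none of the tested segments was called. In DPbla cells 0 of 14 tested members were called, at a background of 2.2%. Of these 14, 1 had an unadjusted p under 0.05, as had 1706 of all 10759 features. The largest changes there were those of Trbv1, with 0.855, 1.07, 1.67 and 1.98 CPM (0.94, SE 0.48, adjusted p 0.370, edgeR), and Trbv29, with 2.78, 1.84, 0.837 and 0.774 CPM (-1.43, SE 0.47, adjusted p 0.155, edgeR). In DPre cells 0 of 15 were called, at a background of 2.38%, with 1 at an unadjusted p under 0.05, as were 1768 of all 11702 features. The largest changes in DPre cells were those of Trbv26 (1.06, SE 0.44, adjusted p 0.242, edgeR) and Trbv13-3 (-0.61, SE 0.48, adjusted p 0.609, edgeR). In DPsel cells 0 of 8 were called, at a background of 0.223%, with 1 at an unadjusted p under 0.05, as were 958 of all 10749 features. Trbv19 had 2.59, 2.59, 5.41 and 4.16 CPM there (0.87, SE 0.37, adjusted p 0.487, edgeR), and Trbv12-2 had 4.53, 6.97, 3.03 and 4.32 CPM (-0.63, SE 0.35, adjusted p 0.630, edgeR).

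In CD4SP cells Trbv2 was the 1 member tested. It had 11.6, 4.03, 6.56 and 6.36 CPM (-0.27, SE 0.44, adjusted p 0.940, edgeR; background 0.173%). Control 1 and control 2 enclosed both cKO libraries, and without control 1 the value turned to 0.63. In DN and CD8SP cells 0 members passed the filter. The genotype differences in SP and all DP cells were also set against each other: 0 of 15 members were called, at a background of 1.75%, and 0 had an unadjusted p under 0.05. For Trbv2 the difference of the differences was -0.17 (SE 0.36, adjusted p 0.919, edgeR).

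The other genes of the pathway were examined from lists of receptor chains, recombination enzymes and factors known to act at the locus. In all DP cells 3 of 8 receptor chain genes were lower in cKO libraries and 0 higher, at the background of 5.88% given above. In each single class edgeR called 0 receptor chain genes, with 1 to 5 at an unadjusted p under 0.05, and DESeq2 called 1 in DPbla, 1 in DPre and 0 in the other classes. The 3 genes called in all DP cells were Trac, the α chain constant region (649, 673, 498 and 466 CPM; -0.40, SE 0.09, adjusted p 0.0142, edgeR), Cd247, the ζ chain of the receptor complex (412, 392, 303 and 300.4 CPM; -0.36, SE 0.09, adjusted p 0.0225, edgeR), and Trbc1 (3744, 3549, 2979 and 2699 CPM; -0.31, SE 0.09, adjusted p 0.0496, edgeR). Trbc2, with 6293, 6600, 5948 and 5453 CPM, did not pass (-0.13, SE 0.09, adjusted p 0.448, edgeR). Of 10 recombination genes 0 were called, with Rag1 at 1493, 1231, 1042 and 1159 CPM (-0.26, SE 0.10, adjusted p 0.146, edgeR). Of 10 locus factors 1 was called, Notch1, the receptor that drives the DN stages, at 70.6, 60.9, 108 and 110 CPM (0.78, SE 0.10, adjusted p 0.000654, edgeR).

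Along development, from DPre to DPsel cells, 8 of 10 recombination genes fell and 1 rose, at a background of 59% of all features called, with Rag1 at a log2 fold change of -3.25 and Dntt, the enzyme that adds bases at junctions, at -2.24. From DN to DPbla cells, at a background of 60%, 5 of 10 recombination genes rose and 3 fell, and 4 of 8 receptor chain genes rose and 4 fell. Trbc2 rose by 1.59 and Trbc1 by 0.98, and Ptcra, the pre-T cell receptor α chain, fell by 1.53 on the log2 scale. Of the locus factors 3 of 10 rose and 4 fell, with Notch1 at -2.05.

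To see how often the V UMIs of a cell were of the same segment, cells with several of them were examined. Of 566 αβ cells with 2 or more V UMIs, 359 held UMIs of 1 segment (63.4%, exact interval 59.3% to 67.4%). By library the share was 62.2%, 67.8%, 64.9% and 59.0%, and control and cKO overlapped. If the UMIs of a cell were drawn independently from the usage of the class, the sum of the squared usages would give 8.82%. In DPbla cells the share was 66.8%, in DPre 63.3%, in DPsel 57.7%, in CD4SP 66.7% and in CD8SP cells 63.6%, with overlapping intervals. There were 5 such DN cells, 1 of a single segment, and their interval of 0.505% to 71.6% overlapped with all of these. A further 198 cells held 2 segments and 9 held 3 or more.

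**Figure D5:**
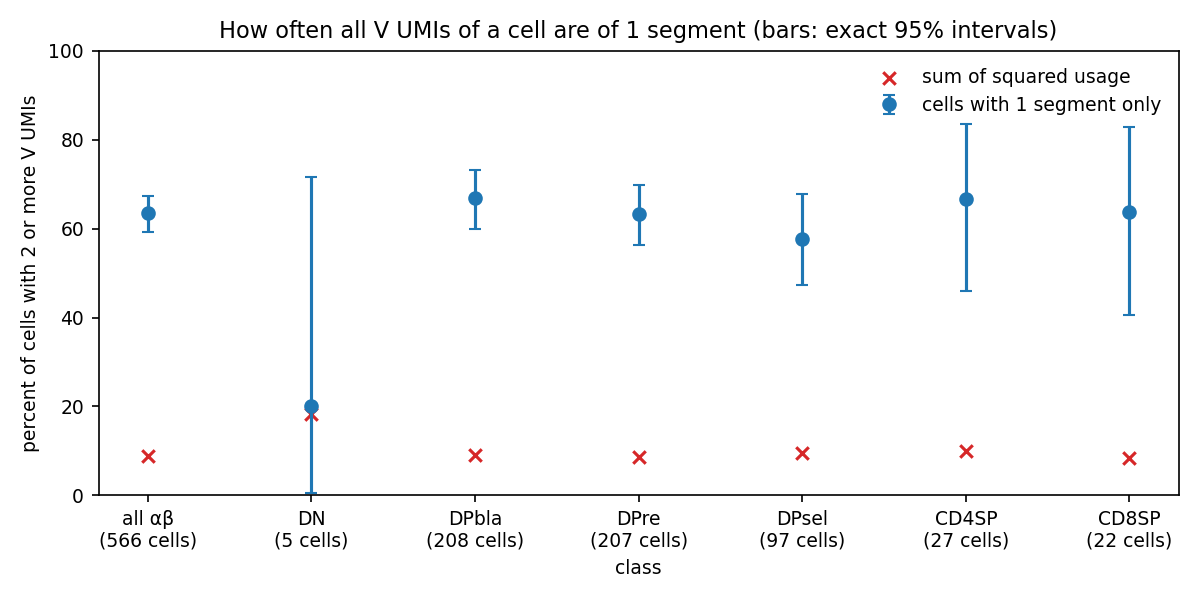
Percent of cells with 2 or more V UMIs in which all of them are of 1 segment, for all αβ cells and each class, with exact 95% intervals; crosses give the sum of the squared usages. The share is 57.7% to 66.8% from DPbla to CD8SP cells, against 8.82% from usage over all αβ cells.

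Segments found together were neighbours on the chromosome in a minority of pairs, but in more than usage would give. Over the 207 cells with more than 1 segment there were 225 pairs of segments, and 50 of them (22.2%, exact interval 17.0% to 28.2%) were of V genes with no other V gene between them, pseudogenes not counted, where usage would give 10.6%. With pseudogenes counted as neighbours too, 41 of the pairs (18.2%, 13.4% to 23.9%) lay next to each other, where usage would give 9.47%. By library the first share was 15.7%, 32.6%, 21.4% and 21.3%, against 10.25%, 11.4%, 11.1% and 9.77% from usage. The interval of control 1 (7.02% to 28.6%) held its usage value. The second share ran from 11.8% to 25.6%. All these intervals treat pairs from the same cell as independent. The most frequent pairs were Trbv2 with Trbv3 (17 cells, 5.92 from usage), Trbv12-2 with Trbv13-2 (14 cells, 4.08 from usage) and Trbv13-2 with Trbv13-3 (9 cells, 1.09 from usage). These pairs lie 294, 2031 and 8314 bases apart. The pseudogene Trbv12-3 lies between Trbv13-2 and Trbv13-3, which are also the pair with a shared window of 50 bases. Trbv2 with Trbv31, which lie at opposite sides of the D segments, were found together in 8 cells, with 4.90 from usage. Both comparisons of neighbours were chosen after these values had been seen, and the source of these pairs was not tested.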

How the data were processed

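UMI counts per gene and cell were deposited by the authors as filtered matrices, made with Cell Ranger at default parameters on GRCm38 (mm10), without normalization or pooling; depth and kept cells stand above. Gene models and segment sequences are those of GENCODE M21, in which all 51 members were found by gene ID. The members and gene lists were chosen with earlier results of these data known. Named members are those called in a printed contrast, the 10 V segments with the most UMIs, the extremes of each genotype comparison, Trbv1, Trbv31 and the D segments.

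As in the study, cells with under 200 genes, in the outer 2.5% of UMI totals at either end or with over 10% mitochondrial UMIs were left out. Unlike in the study, which used DoubletFinder, the 5% of cells with the highest Scrublet score (expected rate 8%) were removed as doublets. The 3000 most variable genes, without T cell receptor V, D and J features, were reduced to 30 components and clustered (scanpy 1.11.5, leidenalg 0.10.2, 20 neighbours, resolution 1). Clusters were named by the mean score of marker lists, and thresholds were set after the clusters had been seen. Low-depth clusters of the αβ classes stayed unnamed even with markers among their top genes, and were included in an alternative. Other low-depth clusters stayed unnamed where no marker was among these genes, and a tie between DN and γδ scores was decided by the number of markers, for DN.

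Counts were summed within a library and class, for classes of 30 or more cells in all 4 libraries (stage contrasts at the mitochondrial limit of 5% had fewer), and tested with edgeR 4.0.16 (R 4.3.3; quasi-likelihood F test, TMM, filterByExpr, Benjamini-Hochberg adjustment over all features tested; 2 libraries per group). Stage contrasts had the library as a term. The study names 2 pairs of mice and littermates, without tying replicate numbers to litters, and each library was taken as 1 mouse. Standard errors are approximate (log2 change over the root of F). Intervals are exact at 95% and cover counting error only; a count of 0 is bounded at 3 counts. The edgeR fits of genotype, stage and their interaction were tested on simulated counts with known changes. Alternatives were DESeq2 1.42.0, other size factors, no filter, a mitochondrial limit of 5%, doublets kept, other clusterings, V UMIs as library size, a replicate block and leaving out each library. No p-value was adjusted over the members alone.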

Additional observations from a re-analysis of the deposited data

How the results depend on the processing

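Values of single comparisons are given as in the report, and the alternatives were run 1 at a time; 270 alternative values of the main results stayed within their limits and 41 moved, and of the single segments and pairs 341 stayed, 23 reversed, 4 became and 6 ceased to be significant. The replicate numbers pair only 2 samples per group, and same-numbered libraries deviated together with a correlation of 0.245 in all DP, 0.0923 in SP and 0.0985 in DN cells. With the replicate block, all DP cells had 1972 called features (15.3%) in place of 755 (5.88%) and 2 of 19 segments called, Trbv12-2 (-0.56, adjusted p 0.0296, edgeR) and Trbv26 (0.84, adjusted p 0.0426, edgeR). In all DP cells 346 features were called at a mitochondrial limit of 5%, 1249 without the filter and 107 with V UMIs as library size. Leaving out single libraries gave 0 to 1 called segments in all DP cells (4.33% to 7.64% of all features) and 0 to 2 of 6 between DPsel and CD8SP cells (38.9% to 41.7%).

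For the stages, no filter on low counts gave 11 called segments (DN to DPbla, with 34.1% of all features called), 2 (DPbla to DPre, 42.9%), 1 (DPre to DPsel, 33.5%), 3 (DPsel to CD8SP, 25.4%) and 1 (CD4SP to CD8SP, 15.5%). The 5% limit left 5 to 59 DN and 27 to 133 CD8SP cells per library, under the minimum of 30 in some, and Trbv2 alone to test, with 1, 0 and 0 calls from DN to DPbla, DPbla to DPre and DPsel to CD8SP. V UMIs as library size gave 0 for DPsel to CD8SP, and clusters with all variable genes and kept doublets gave 1 each for CD4SP to CD8SP.

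The summed level (log2 of cKO over control) moved per 1000 Trbc UMIs to 0.320, 0.126 and 0.173 in DPbla, DPre and DPsel, 0.121 in CD8SP and 0.162 in all DP cells. It moved at the 5% limit to -0.231 in DPsel, -0.439 in CD4SP and 0.358 in CD8SP cells, and with doublets kept to 0.144 in DN and -0.336 in CD8SP cells. Leaving out single libraries gave -0.0604 to 0.0713 in DN and -0.370 to 0.246 in CD4SP cells. The share of cells (cKO minus control, percentage points) was, without thinning, -1.89 and -1.92 in DPre and DPsel, -3.09 and -4.96 in CD4SP and CD8SP and -0.994 in all DP cells, and 0 in DN, -3.42 in CD4SP and 3.85 in CD8SP cells at the 5% limit; leaving out single libraries gave -2.78 to 0 in DN cells. Usage at the 5% limit was 20.4% (Trbv2, DPbla), 17.8% (Trbv2, DPre) and 10.2% (Trbv13-2, DPre).

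Reversed genotype values in all DP cells, each without a call, were -0.15 (Trbv2), 0.38 (Trbv3) and -0.075 (Trbv15) at the 5% limit and -0.020 (Trbv15) with doublets kept. Leaving out single libraries gave -0.33 to 0.34 for Trbv2, -0.37 to 0.072 for Trbv13-1, -0.042 to 0.31 for Trbv13-2, -0.16 to 0.22 for Trbv15, -0.38 to 0.44 for Trbv20 and -0.50 to 0.16 for Trbv31, in CD4SP cells -0.84 to 0.63 for Trbv2, and -0.57 to 0.42 for Trbv2 in the difference between SP and all DP cells. Trbv13-2 from DN to DPbla cells was -0.044 with low-UMI clusters included (chosen after the data had been seen), -0.13 with doublets kept, -1.66 with V UMIs as library size and -0.11 to 0.21 without single libraries. Trbv2 from DPsel to CD8SP cells was 0.0036 at the 5% limit. The cause of these changes was not tested. With 66 V UMIs in DN cells, most segments cannot be compared there.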
